A study of Drosophila melanogaster with 3 samples.

Results

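The genes described here encode the subunits of the proteasome of Drosophila melanogaster. They were chosen by symbol, as the protein-coding genes named Prosalpha, Prosbeta, Rpn or Rpt with a number, and 48 of the 13945 protein-coding genes on 6 chromosome arms met that rule. They comprised 32 canonical subunits, of which 14 belong to the core particle, 8 to the lid and 10 to the base, and 16 paralogs of the testis type, whose symbols end in T, R or either letter with a digit.

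Binding of CG30403, an uncharacterised protein, was measured genome-wide with ChIP-seq (sequencing of immunoprecipitated chromatin) in embryos collected whole from 0 to 24 h of development. The stock was transgenic and carried CG30403 with GFP at its C terminus, the antibody recognised GFP, and the chromatin was sonicated to 200 to 800 bp. The samples formed 1 group of 3 biological replicates with male and female embryos mixed, so there was no comparison of conditions. The control library was not analysed here, and no expression was measured.

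The proteasome is the protease that degrades proteins tagged with ubiquitin. Its core particle is a barrel of alpha rings and beta rings with the protease sites on the inner face of some beta subunits. A regulatory particle caps the barrel: its base holds the Rpt ATPases that unfold substrates and its lid holds the deubiquitinase Rpn11 on a scaffold of other Rpn proteins. In Drosophila, several subunits have paralogs expressed mainly in the male germ line.

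A gene was counted as promoter-bound when a summit of the authors' optimal peak list on build dm6 lay within 500 bp of any of its annotated transcription start sites (TSSs). That list held 7827 regions. Its signal is a score from the peak caller with no stated scale, and it ran from 128.9 to 6456.1. Rank 1 is the strongest region of a list. Because the replicate lists had other lengths, of 29373, 30000 and 30000 regions, replicates were compared through the 7827 strongest regions of each, called its top list. Sequencing depth is unknown, as no read counts accompany the regions. In whole embryos, a promoter occupied strongly in few cells and a promoter occupied weakly in many cannot be told apart.

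The DNA at a summit of the lid, the base and the core is printed first, because these windows carry the signal compared below; the promoter of an unbound testis-type paralog follows for contrast. Sequence is from the RefSeq Release 6 assembly, in the dm6 coordinates of the lists, on the strand of the gene and 5′ to 3′. In the first 3 windows the summit is at position 101, and bases that the annotation assigns to an untranslated region (UTR) were trimmed away. Rpn5 is shown from chr3R:5789186-5789328 (+ strand), in an intron of the divergent gene Hat1, with TATAAA in capitals. Rpn5 and Prosbeta2 have the strongest summits of lid and core, whereas Rpt3 is the fourth in signal among the bound base genes. Of the stronger base genes, Rpt5 and Rpt2 were left with fewer than 60 bases free of UTR at the summit, and the sequence of Rpn13 is not shown here. Rpt3 is shown from chrX:11124832-11125032 (+ strand), between genes, with CAGCTG in capitals. Prosbeta2 is shown from chr3L:14999700-14999900 (+ strand), between genes, and held none of the 7 motifs searched. Prosbeta2R1, chosen after values were seen, is shown for the 150 bases before its TSS at chrX:5808804-5808953 (+ strand), with CTCTC, the reverse complement of GAGAG, in capitals.
Rpn5: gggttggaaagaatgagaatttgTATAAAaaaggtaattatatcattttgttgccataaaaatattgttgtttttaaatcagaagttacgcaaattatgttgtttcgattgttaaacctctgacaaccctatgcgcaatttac
Rpt3: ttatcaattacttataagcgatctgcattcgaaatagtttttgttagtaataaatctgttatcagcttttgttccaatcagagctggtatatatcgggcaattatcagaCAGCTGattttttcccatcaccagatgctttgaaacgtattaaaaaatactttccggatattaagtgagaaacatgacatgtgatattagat
Prosbeta2: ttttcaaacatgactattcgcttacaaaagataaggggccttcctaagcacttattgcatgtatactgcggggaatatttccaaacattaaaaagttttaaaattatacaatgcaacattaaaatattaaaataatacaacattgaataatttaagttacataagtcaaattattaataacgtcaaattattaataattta
Prosbeta2R1: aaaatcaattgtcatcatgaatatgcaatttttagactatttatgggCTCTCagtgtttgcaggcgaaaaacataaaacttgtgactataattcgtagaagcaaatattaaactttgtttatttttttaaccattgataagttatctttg

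Of the 48 genes, 21 were promoter-bound, or 43.8%, against 30.2% of all protein-coding genes. All 21 were canonical, so 21 of 32 canonical genes and 0 of 16 testis-type paralogs were bound. Within the canonical genes the bound count was 8 of 8 for the lid, 7 of 10 for the base and 6 of 14 for the core. The lid therefore had a summit at every gene the symbol rule found, the core was split, and the testis-type paralogs had none. Rpn6 and Rpn8 of the lid counted as bound only through a later start site, 639 and 2977 bp from the first annotated one. Their summits also lay 131 bp from the TSS of ave and 171 bp from that of Slik. Sem1, a small lid component whose symbol the rule does not cover, was unbound, which makes the lid count 8 of 9 when it is added.

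The order of lid, base and core held in the top list of every replicate, with unequal precision. For the lid, 8, 7 and 7 genes were bound in replicates 1, 2 and 3, a mean share of 91.7% ± 7.22 (SD, n = 3). For the base, 6, 7 and 7 genes were bound, a share of 66.7% ± 5.77. For the core, 3, 7 and 8 genes were bound, a share of 42.9% ± 18.9. The core count was thus lowest in replicate 1, and the share over all protein-coding genes was 28.1%, 30.0% and 30.4% in the same order. No testis-type paralog was bound in the top list of any replicate.

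**Figure D1:**
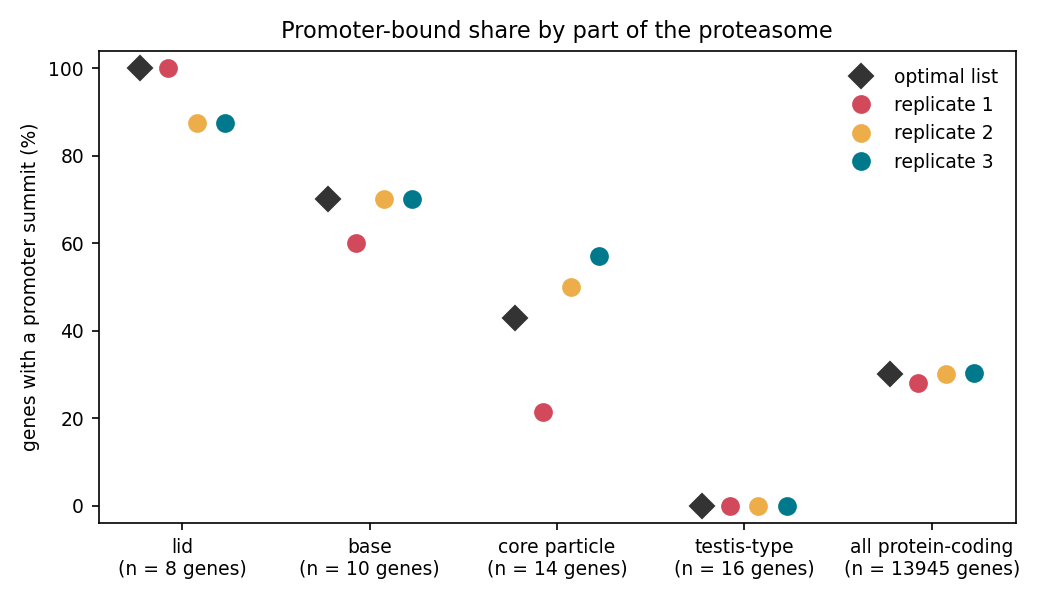
Share of genes (%, vertical axis) with a summit within 500 bp of a TSS in the optimal list and in the top list of each replicate, for lid, base, core and testis-type genes and for all protein-coding genes. In the optimal list the lid stands at 8 of 8 genes, the base at 70.0%, the core at 42.9%, the testis-type paralogs at 0.0% and all genes at 30.2%.

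A stricter count asked for a summit in the optimal list and in the top list of all 3 replicates. It was met by 15 of the 48 genes, against 23.7% of all protein-coding genes: 7 of the lid, 6 of the base and 2 of the core. Rpn1, Prosalpha5, Prosalpha7 and Prosbeta1 were in 2 top lists, all of them without replicate 1. Rpn9 was in the top list of replicate 1 alone and Prosalpha4 in that of replicate 2 alone. Without replicate 1 the count rose from 2 to 5 for the core, from 6 to 7 for the base and from 15 to 19 over all 48 genes, while the lid count remained 7. Dropping a replicate removes a condition, so these counts could only stay or rise. The share over all protein-coding genes was 26.6% without replicate 1, 24.5% without replicate 2 and 25.0% without replicate 3. With replicate lists 50% as long as the top lists, 7 of the 48 genes met the stricter count, near the 15.1% of all genes, and with the full replicate lists 20 met it, against 29.5%.

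Among the lid genes, Rpn5 (FBgn0028690), a scaffold subunit, had the strongest promoter summit of all proteasome genes, with a signal of 1064.8 in the peak at chr3R:5788975-5789577. Its signal was 206.9, 478.5 and 387.3 in replicates 1, 2 and 3, where it ranked 238, 335 and 406. Of the 4205 bound genes, 348 had a signal at least that high, so Rpn5 lay in the upper range of bound promoters without being at the top. However, this summit lay nearer the TSS of Hat1 (98 bp) than that of Rpn5 (207 bp). The further Rpn5 summit, at -6 bp, had a signal of 491.6, below the strongest summits of Rpn3, Rpn11 and Rpn6. Rpn3 (FBgn0261396), another scaffold subunit, followed with 726.7 at chr2L:19051692-19051973 and 119.7, 313.2 and 304.9 in the replicates. Rpn11 (FBgn0028694), the deubiquitinase, had 575.1 at chr2L:5059725-5060208 and 136.5, 245.2 and 192.4 in the replicates. Rpn6 (FBgn0028689), a scaffold subunit that also contacts the core particle, had 516.7 at chr2R:14752225-14752515 and 78.0, 245.0 and 193.6 in the replicates. These 4 lid genes ranked within the first 1675 regions of every replicate list. The deposited signals of different lists have no shared scale, so replicates were compared by rank only.

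The other lid genes had weaker summits. Rpn8 (FBgn0002787), the catalytically inactive partner of Rpn11, had a signal of 279.9 and ranked 3737, 3018 and 3584 in the replicates. Rpn7 (FBgn0028688) had 261.8 and ranked 3106, 3511 and 5116, and Rpn12 (FBgn0028693) had 219.0 and ranked 4330, 4788 and 5056. Rpn9 (FBgn0028691) was the weakest, at 147.2, with ranks of 7146, 8156 and 8176. Its ranks in replicates 2 and 3 were just past 7827, the length of the top lists. The lid thus ranged from 147.2 to 1064.8 and spanned most of the range seen over the proteasome genes.

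In the base, all 4 Rpn genes and 3 of the 6 Rpt ATPase genes were bound. Rpn13 (FBgn0033886), a ubiquitin receptor, led with a signal of 459.1 at chr2R:13960293-13960558, and it ranked 2292, 1669 and 1564 in the replicates. Rpn10 (FBgn0015283), another ubiquitin receptor, had 187.9 and ranked 5321, 6124 and 4695. Rpn2 (FBgn0028692) and Rpn1 (FBgn0028695), the large scaffold subunits, had 160.6 and 152.7. Rpn2 ranked 4122, 6474 and 6813. Rpn1 ranked 28828, 6375 and 6902, so that replicate 1 placed it near the end of its list. The ubiquitin receptors and scaffolds of the base were therefore all bound, with a lone strong member.

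Of the ATPases, Rpt5 (FBgn0028684) had a signal of 292.4 at chr3R:23752616-23753099 and ranked 6556, 3213 and 2675. Rpt2 (FBgn0015282) had 241.4 and ranked 4599, 3952 and 4237, and Rpt3 (FBgn0028686) had 205.3 at chrX:11124690-11125173 and ranked 5407, 4976 and 5029. The bound ATPases were in the top list of every replicate. Rpt1, Rpt4 and Rpt6 were unbound. Rpt6 ranked 25408, 8576 and 11899, Rpt4 ranked 24094, 28200 and 17842, and Rpt1 had regions at 20112 and 9262 in replicates 1 and 3 and none in replicate 2. None of these ranks reached a top list.

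In the core, 4 of 7 alpha genes and 2 of 7 beta genes were bound. Prosbeta2 (FBgn0023174), the subunit with trypsin-like activity, had the highest signal of the core, 338.6 at chr3L:14999558-15000041, with 52.4, 153.6 and 135.6 in the replicates and ranks of 3179, 2553 and 2512. Prosbeta1 (FBgn0010590), with caspase-like activity, had 238.9 and ranked 10894, 3677 and 3758. Prosbeta5, with chymotrypsin-like activity, was unbound and ranked 11115, 8404 and 10165. The catalytic subunits were thus not alike in these lists: Prosbeta2 was in every top list, Prosbeta1 in those of replicates 2 and 3, and Prosbeta5 in none. However, both optimal summits lay nearer a neighbour's TSS, mRpL39 (134 bp, against 151 bp for Prosbeta2) and Rrp42 (56 bp, against 65 bp for Prosbeta1). When each summit was given to its nearest TSS only, 0 of 7 beta genes were bound, against 22.9% of all genes.

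The alpha subunits form the outer rings and the gate of the barrel. Prosalpha6 (FBgn0250843) had a signal of 200.3 and ranked 5497, 5802 and 4765, and was the only alpha gene in every top list. Prosalpha5 (FBgn0016697) had 168.9 and ranked 10995, 7220 and 4709. Prosalpha7 (FBgn0023175) had 153.1 and ranked 4878 and 6913 in replicates 2 and 3, with no region in replicate 1. Prosalpha4 (FBgn0004066) had 143.8 at chrX:16276015-16276498, the lowest signal of the bound proteasome genes, and ranked 19454, 4063 and 16341. Replicate 1 placed 3 of these 4 alpha genes below its top list or listed no region.

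Several unbound core genes lay close to the end of the optimal list, which held exactly the 7827 strongest regions of the pooled list of all 3 replicates. Prosbeta3 was just outside, at rank 7860 of the pooled list with a signal of 128.3, against the lowest listed signal of 128.9. Prosalpha4, at pooled rank 7022, and Rpn9, at 6844, were the members just inside. Prosalpha2 and Prosalpha3 had pooled ranks of 8699 and 9071, and each was in the top list of 2 replicates. Prosbeta5 had a pooled rank of 9273 and was in no top list. Prosalpha2 ranked 7466 and 7478 in replicates 2 and 3, and Prosalpha3 ranked 3932 and 6353 in replicates 1 and 3. In the stronger 50% of the optimal list, 6 lid genes, 2 base genes and 1 core gene were bound, 9 of the 48 in all, against 19.7% of all protein-coding genes.

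The remaining unbound core genes were weaker. Prosbeta4 ranked 23400, 9095 and 17186 and Prosbeta6 ranked 19853, 19039 and 21483. Prosbeta7 had a region in replicate 3 alone, at rank 16047, and Prosalpha1 had none in any replicate. Of the 11 unbound canonical genes, 10 had a region near a TSS in some full replicate list, against 63.4% of all protein-coding genes. In the pooled list of 30000 regions, 29 of 32 canonical genes had a summit within 500 bp of a TSS, against 53.0% of all genes. The full lists were submitted with background regions, so a low rank in them is not a binding site by itself.

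**Figure D2:**
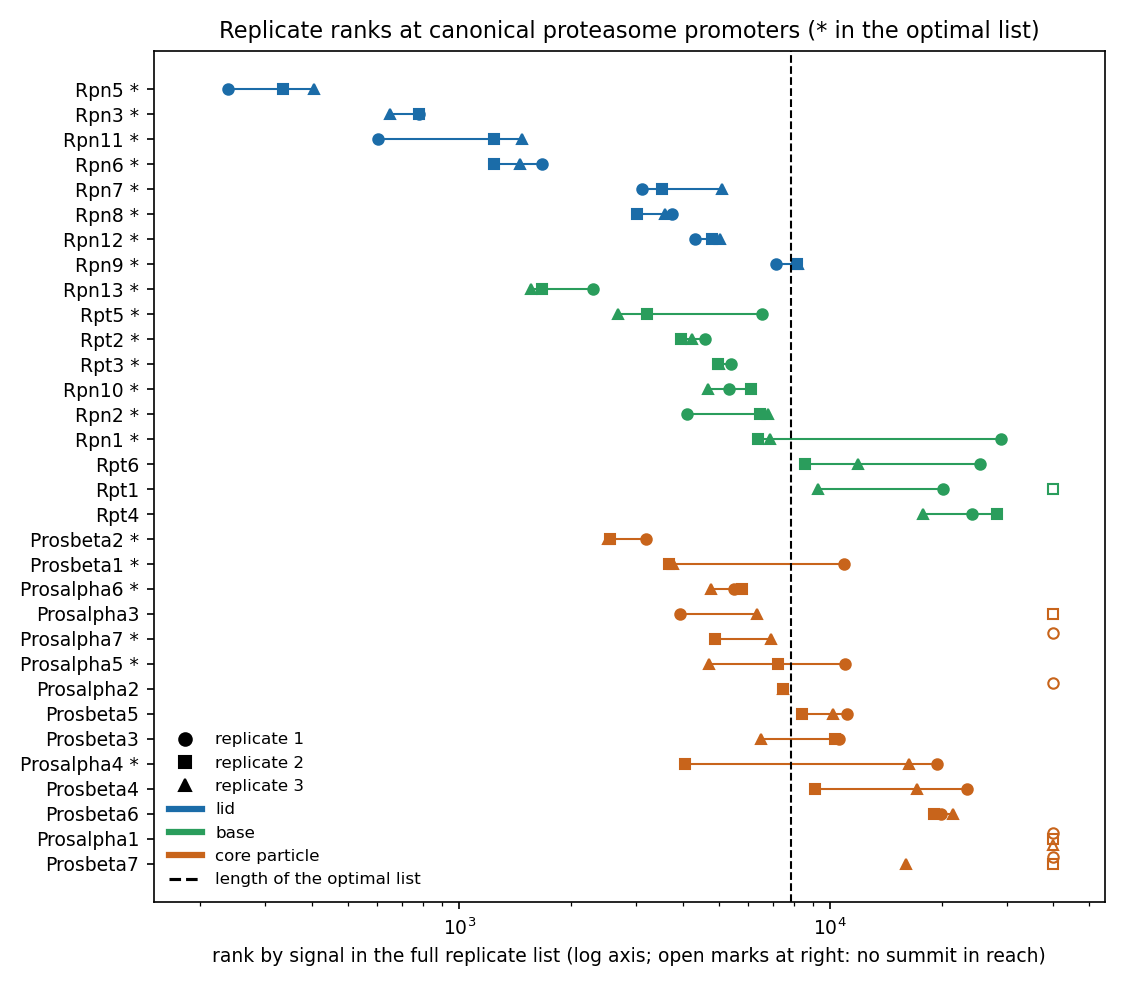
Rank by signal (log axis) of the strongest region near each canonical proteasome gene in the full list of each replicate, with an open mark at the right where a list had none and an asterisk on genes bound in the optimal list. Rpn5 and Rpn3 rank within the first 779 in every replicate, while Prosalpha4 ranks 19454, 4063 and 16341.

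Over every gene of a group, bound or not, the median rank in replicates 1, 2 and 3 was 2390.5, 2130 and 2532 for the lid, a mean of 2351 ± 204 (SD, n = 3). It was 5981.5, 6249.5 and 5921 for the base, a mean of 6051 ± 175. For the core it was 15284.5, 7935 and 7195.5, a mean of 10138 ± 4472, and over all protein-coding genes it was 29113, 25881 and 22749. In these medians a gene with no region ranks after the last. The 3 groups kept the same order in each replicate, and the core was the group whose median moved most between replicates. Lid, base and core were not tested against each other, because the groups had been chosen with these results known.

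Bound proteasome promoters were not strong as a group. The median signal over the 21 bound genes was 239, against 327 over all bound genes, whose quartiles were 203 and 575. The median was 398 for the lid, 205 for the base and 185 for the core. Only 6 of the 21 exceeded the median of all bound genes: Rpn5, Rpn3, Rpn11 and Rpn6 of the lid, Rpn13 of the base and Prosbeta2 of the core. The lid median was above that of all bound genes, and those of the base and core were below it.

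**Figure D3:**
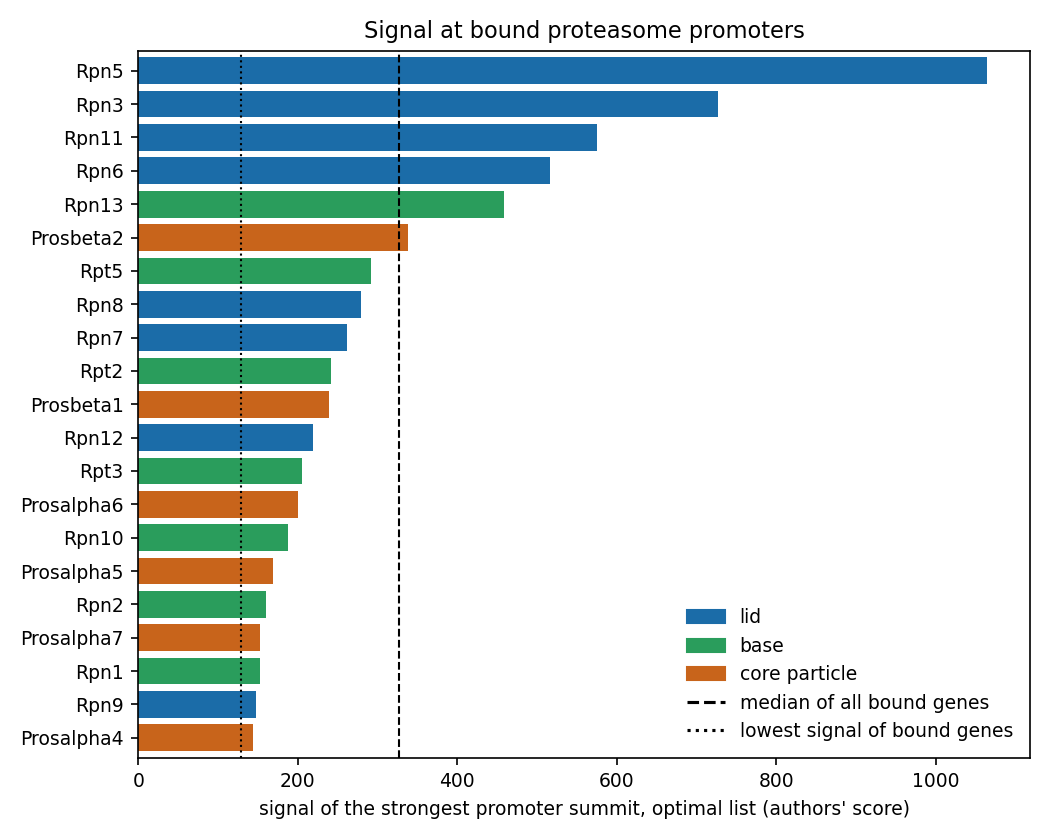
Signal of the strongest promoter summit in the optimal list (authors' score, horizontal axis) for each of the 21 bound proteasome genes, marked by lid, base or core, with the median of all bound genes. Rpn5 stands at 1064.8 and Prosalpha4 at 143.8, and 6 genes lie above the median of 327.

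The testis-type paralogs were empty in nearly every list. Of the 16, 14 had no region near a TSS in any full replicate list, whereas 63.4% of all protein-coding genes had one in some list. Prosbeta2R2 ranked 8664 and 22202 in replicates 1 and 3 and 27792 in the pooled list, and Rpt6R ranked 28476 in replicate 1 alone. The pooled list reached 1 of the 16, against 53.0% of all genes. The nearest optimal summit lay between 3089 bp (Rpt3R) and 68712 bp (Prosbeta5R2) away, with a median of 13139.5 bp. For the unbound canonical genes that distance ran from 1092 bp (Prosbeta6) to 11631 bp (Rpt1), with a median of 3220 bp, and for all 9740 unbound genes the median was 7222 bp.

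A canonical gene with a testis-type paralog was bound in 6 of 12 cases, and a canonical gene without one in 15 of 20, against 30.2% of all protein-coding genes. These sets differ in their mix of core, lid and base: among the lid genes, all bound, only Rpn12 had such a paralog. In the core, Prosalpha4, Prosalpha6 and Prosbeta2 were bound with a paralog, and Prosalpha5, Prosalpha7 and Prosbeta1 without one. Prosbeta2, the strongest core gene, had the unbound paralogs Prosbeta2R1 and Prosbeta2R2. Prosalpha4 had the unbound paralogs Prosalpha4T1 and Prosalpha4T2. Rpt3, Rpn12 and Rpn13 were bound and Rpt3R, Rpn12R and Rpn13R were not, so the difference between a gene and its paralog was seen in core, base and lid. Testis was not sampled, since the material was embryos.

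At the bound genes the summits lay close to an annotated start site. Measured from the nearest annotated TSS of the gene, the strongest summit was upstream at 18 genes. It was at the first base for Prosalpha7 and downstream at Rpn3 (20 bp) and Rpn10 (12 bp). For Rpn6, Rpn8, Rpn9 and Rpt2, counted as upstream, that TSS was a later one, 639, 2977, 451 and 124 bp from the first. Their summits lay downstream of the first TSS, inside the gene. By the same measure 90.9% of all bound genes were upstream. The median distance was 99 bp, against 146 bp over all bound genes, and 19 of 21 lay within 200 bp, against 66.6%. Lid summits had a median offset of -159 bp from the nearest TSS, base summits -45 bp and core summits -48 bp. The lid median includes Rpn6 (-119 bp), Rpn8 (-154 bp) and Rpn9 (-164 bp), measured from a later start site. It therefore depends on the start site used. Rpn7 had the farthest, at 282 bp upstream, and Rpn5 the next, at 207 bp.

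**Figure D4:**
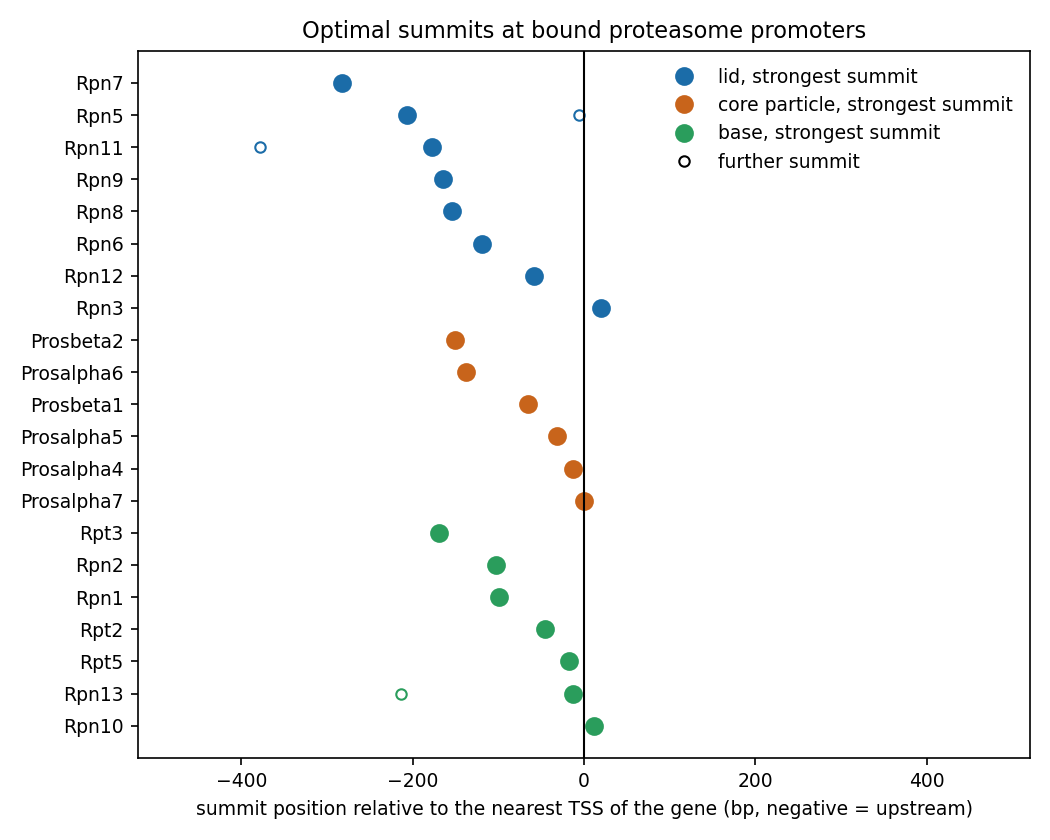
Position of every optimal summit within 500 bp of a TSS of the bound proteasome genes (bp relative to the nearest annotated TSS of the gene, negative upstream). Most points lie between the TSS and 200 bp upstream, and Rpn5, Rpn11 and Rpn13 have a further summit.

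The 21 genes had 24 summits. Rpn5 had a further summit at -6 bp from the TSS with a signal of 491.6, Rpn11 had one at -378 bp with 365.7, and Rpn13 had one at -213 bp with 215.8. By the annotation, 12 of the strongest summits lay between protein-coding genes and those of Prosalpha7, Rpn10, Rpn3 and Rpt2 in the 5′ UTR of the gene itself. The summits of Rpn6, Rpn8 and Rpn9 lay in an intron of the gene, near a start site 639, 2977 and 451 bp from the first annotated one. That of Prosalpha6 lay in the 5′ UTR of Npc1a and that of Rpn5 in an intron of Hat1. With windows of 250 bp and 1000 bp, 20 and 21 members were bound, against 24.4% and 34.0% of all genes, and with any overlap of the region 21 were bound, against 32.1%.

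Many proteasome promoters faced a neighbouring gene. At 16 of the 21 bound genes the summit lay within 500 bp of another gene's TSS as well, against 59.4% of all bound genes, and ChIP-seq cannot assign such a summit to either gene. The proteasome gene was the nearer in 10 cases. The other gene was nearer in 6 cases, among them Prosalpha6 (Npc1a, 3 bp from the summit), Prosbeta1 (Rrp42, 56 bp), Rpn5 (Hat1, 98 bp), Rpn7 (AP-2mu, 119 bp) and Prosbeta2 (mRpL39, 134 bp). Rpn1, Rpn10, Rpn11, Rpn12 and Prosalpha5 had the summit to themselves. When each summit was given to its nearest TSS only, 16 proteasome genes were bound, 6 of the lid, 7 of the base and 3 of the core, against 22.9% of all genes.

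Canonical genes lay closer to another gene's TSS than testis-type paralogs did, at medians of 305 bp and 2470.5 bp. Of the canonical genes, 22 of 32 had another gene's TSS within 1000 bp, against 42.9% of all protein-coding genes and 4 of 16 testis-type paralogs. Among the canonical genes with such a neighbour 16 were bound, against 47.9% of all genes with one, and among the 10 without 5 were bound, against 16.8% of all genes without one. By group, 5 of 10 core genes with a neighbour and 1 of 4 without were bound, 5 of 6 and 2 of 4 of the base, and 6 of 6 and 2 of 2 of the lid. Of the testis-type paralogs, 0 of 4 with and 0 of 12 without a neighbour were bound. The median distance to another TSS was 287.5 bp for the lid, 323 bp for the base and 334.5 bp for the core, against 1375 bp over all genes. The part of spacing in the differences between lid, base, core and testis-type genes was not tested.

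A known core-promoter element, the DNA replication-related element (DRE), is shown at 4 proteasome promoters because 12 of the 32 canonical promoters held it, against 9.36% of all promoters. The windows below come from the same assembly and strand convention, with the palindrome TATCGATA in capitals. Those of Prosalpha6 (chr2L:10221315-10221350, + strand), Prosbeta2 (chr3L:14999921-14999950, + strand) and Rpn12 (chr3L:16582792-16582839, + strand) belong to bound genes, and that of Prosbeta6 (chr3L:16610435-16610482, − strand) to an unbound gene.
Prosalpha6: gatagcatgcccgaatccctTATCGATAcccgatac
Prosbeta2: tagttgagtccatgaatataTATCGATAca
Rpn12: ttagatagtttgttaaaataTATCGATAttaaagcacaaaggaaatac
Prosbeta6: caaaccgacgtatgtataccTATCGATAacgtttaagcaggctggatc

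In the window from 250 bases before to 50 bases from the first TSS, TATCGATA occurred in 6 of 14 core promoters, 4 of 8 lid promoters, 2 of 10 base promoters and 0 of 16 testis-type promoters. Of the 12 canonical genes that held it 10 were bound, and of the 20 that did not 11 were bound. Over all genes the bound share was 50.5% with and 28.1% without it. The unbound canonical genes with the element were Prosalpha3 and Prosbeta6. At the 10 bound genes its distance from the summit ran from 14 bp at Prosalpha5 to 288 bp at Rpn7, and the copies printed above lay 125 bp (Prosalpha6), 144 bp (Prosbeta2) and 154 bp (Rpn12) away. Within 100 bp of the summit it was found at 4 of 21 bound genes, namely Prosalpha5, Prosbeta1, Rpt5 and Rpn3, against 4.43% of all optimal summits and 9.31% of the strongest promoter summits of bound genes.

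Each of the other 6 motifs was found within 100 bp of the summit at 6 or fewer of the 21 bound genes. GGTCACACT, a motif of Drosophila core promoters, was near 3 of 21 summits (Prosalpha4, Rpn8 and Rpn9). Its share was 1.88% over all optimal summits and 4.03% over the strongest promoter summits of bound genes. It was in 3 core, 1 lid and 1 base promoter, against 6.05% of all promoters. TATAAA was near 6 of the 21, 5 of them in the lid, against 38.7% of optimal summits and 38.4% of those promoter summits. With shares in the same order, CAGCTG was near 3 (7.96% and 11.6%), TGAGTG near 3 (8.56% and 6.84%) and GAGAG near 1 (19.2% and 17.8%). TGACNNNGC, which resembles the antioxidant response element bound by cnc, was near 0 of 21, against 4.64% and 5.22%. In the promoter window it was found in 2 core, 1 lid, 2 base and 1 testis-type promoter, against 8.63% of all. GAGAG was in 6 of 16 testis-type promoters, against 29.7% of all. All motifs were searched on both strands. The median GC content within 100 bp of the summit was 33.3% at the bound proteasome genes and 33.8% over all optimal summits, and it was 32.5% in core, 33.0% in lid, 35.8% in base and 32.7% in testis-type promoters, against 38.0% over all promoters.

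Other genes of the pathway were read from a list of 28 symbols, 26 of which matched the annotation under the symbol listed. Of the 26, 16 were bound in the optimal list, against 30.2% of all protein-coding genes, with a median signal of 280, and 13, 16 and 18 were bound in the top lists of replicates 1, 2 and 3. With nearest TSS only, 12 were bound, against 22.9% of all genes. With another TSS within 1000 bp 13 of 15 were bound, and without one 3 of 11, against 47.9% and 16.8% of all such genes. The strongest summits credited below to alien, ntc, CSN5, Uch-L5 and Ubqn lay nearer another gene's TSS. Assembly and regulation were represented by Pomp, the maturation factor of the core, at 565.7, the proteasome regulator PI31 at 385.3, and ntc, an F-box protein that binds PI31, at 576.1. Uch-L5 (245.0) and Usp14 (222.8), deubiquitinases of the regulatory particle, were bound, as were Uba1, the ubiquitin-activating enzyme, at 266.1 and the polyubiquitin gene Ubi-p63E at 499.5. The other polyubiquitin gene, Ubi-p5E, was unbound, and its nearest optimal summit lay 8419 bp away.

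The transcription factor gene cnc, whose mammalian relatives induce proteasome genes, had a signal of 395.8, and its dimer partner maf-S had 174.9. The shuttle proteins rngo and Ubqn had 218.9 and 153.6, while Rad23 was unbound. Of the COP9 signalosome, a complex related to the lid in structure, 5 of 9 genes were bound: alien (590.3), CSN5 (434.3), CSN4 (281.6), CSN3 (278.8) and CSN1b (199.9). CSN5 is the relative of Rpn11 in that complex. CSN1a, CSN6, CSN7 and CSN8 were unbound, as were Nedd8, REG, TER94 and Sem1. Sem1 ranked 8406, 9283 and 8627 in the replicates, past the end of the top lists in each.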

How the data were processed

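For each dm6 region the authors deposited a signal score, whose scale is not stated, and a summit position. The optimal list and the pooled list were made from all 3 replicates, per the deposited text notes. Aligner, peak caller and the threshold used for irreproducible discovery rate are not given in the sources used. The 5 lists on build dm3 were not used.

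Regions were ranked by signal within each list. TSSs were taken from the Ensembl release 115 annotation, and bases from the RefSeq copy of the Release 6 genome. The background was the 13945 protein-coding genes on 6 arms. Replicate top lists held the 7827 strongest regions. Members and lists were chosen with earlier results of these data known, so groups are described by counts and medians, with no test. Every member could be named; sequences were those at the strongest summit of each part where a sequence could be shown. Alternatives were other windows, stronger peaks, nearest TSS only, isolated TSSs, the literal reading of the symbol endings, Rpn10 moved to the lid, lists of other lengths and each replicate left out in turn. The leave-out counts by group and the count with Sem1 were chosen after seeing the data. The counting was tested on simulated data, with Python 3.11.15, pandas 2.3.3 and numpy 2.4.6. The 3 replicates are separate biological samples per the labels.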

Additional observations from a re-analysis of the deposited data

How the results depend on the processing

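Of 88 alternatives, 77 kept the result within 1.5 times of its main count, or within the replicate spread, and 11 moved it. The 88 are not independent: all members and canonical genes gave equal counts in the settings they shared. Under narrower rules the testis-type count of 0 could not change. In the stronger 50% of the optimal list, 9 members were bound in place of 21, all 9 canonical, with 2 base genes in place of 7 and 1 core gene in place of 6; that list is shorter by construction. The core count was 3 with the nearest TSS only and 3 in the top list of replicate 1. Of the 22 members with no other TSS within 1000 bp, 5 were bound (22.7%, against 16.8% of all such genes), 5 of 10 canonical and 0 of 12 testis-type. The count in every replicate was 15, and 7 with top lists 50% as long (15.1% of all genes) and 20 with the full replicate lists (29.5% of all genes). Leaving out each replicate gave 15 to 19 over all members, 2 to 5 for the core, 7 to 7 for the lid and 6 to 7 for the base, and a median rank over the bound genes of 4276 to 4647. These leave-out counts could not fall, because a condition was dropped. The optimal list still came from all 3 replicates, so the counts do not show what a replicate contributes to it. The median signal of 239 was 459 in the stronger 50%, a rise fixed in advance because that cut removes the weaker summits. It was 271 over the members also bound in the top list of replicate 1, and the cause of that shift was not tested. With Rpn10 in the lid, 9 of 9 lid genes and 6 base genes were bound. No paired analysis was possible because there is 1 group. Depth is unknown, and the end of each list limits what counts as bound for Prosbeta3, Prosalpha4 and Rpn9.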

Other observations

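The genes that shared a summit with a proteasome gene included a component of the mitochondrial ribosome (mRpL39, beside Prosbeta2), a histone acetyltransferase (Hat1, beside Rpn5), the histone mRNA-binding protein Slbp (beside Rpn2), an exosome subunit (Rrp42, beside Prosbeta1), a sterol transporter (Npc1a, beside Prosalpha6) and the katanin subunit kat80 (beside Prosalpha4). Each of these TSSs lay on the opposite strand to the proteasome gene. The nearest other TSS was on the opposite strand at 19 of the 21 bound proteasome genes, 9 of the 11 unbound canonical genes and 7 of the 16 testis-type paralogs, against 73.5% of all bound genes and 56.9% of all protein-coding genes.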
